A study of Mus musculus with 52 samples.

Results

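The 9 genes Neurog3, Neurod1, Insm1, Nkx2-2, Pax4, Rfx6, Pax6, Isl1 and Fev encode transcription factors of the enteroendocrine lineage, the hormone-producing cells of the gut epithelium. They were taken by gene symbol from a table of 24116 genes, and all 9 were found. They were measured by bulk mRNA sequencing in intestinal organoids, cultures of gut epithelium grown in a gel from single cells, of wild type C57BL/6 mice aged 8 weeks. Organoids received 10 µM all-trans retinoic acid (atRA), 5 µM of an RXR antagonist (RXRi) or the solvent DMSO on day 0 and again on day 3, and were collected on days 1, 3, 4 and 5, with a further DMSO group on day 0. All groups shared a medium that contained R-spondin, EGF and Noggin, with conditioned medium of Wnt3a-producing cells and the inhibitors Y-27632 (of ROCK) and CHIR99021 (of GSK3B) added until day 3. Each of the 13 groups holds 2 organoid cultures, one from each of 2 male littermates, and RNA was purified in duplicate from each culture, with 3 wells pooled. n is therefore 2 cultures per group, and the p-values measure the spread between these animals and their cultures. The main tests treat the 26 culture means as independent, although the same 2 animals supply all groups. A run with the culture as a block was made as an alternative.

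Enteroendocrine cells arise from secretory progenitors of the crypt. Neurog3, a basic helix-loop-helix factor, is switched on briefly in these progenitors and is required for the lineage to form. Neurod1, Insm1, Nkx2-2, Pax4 and Rfx6 act after it in differentiating cells, while Pax6, Isl1 and Fev take part in the choice and maintenance of hormone-producing subtypes. The same factors are used in the pancreatic islet.

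All values are RPKM, reads scaled to gene length and to the library's total, so levels can be compared between genes. One DMSO library of day 1 (culture 1, duplicate 2) held 12443 reads and was left out, and the other 51 held 12895667 to 26206028 reads (median 19686970), with 14387 to 15800 genes above 0. Epcam, an epithelial surface protein, was at 257 to 789 RPKM in the 51 libraries and the granule protein gene Chga at 7.56 to 265 RPKM. Ins1 and Ins2 of the islet were at 0 in all 51, and Sox10 of enteric glia in 50. In bulk RNA, fewer cells of a type and less RNA per cell cannot be told apart.

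The bases before the RefSeq start sites of the factor at the head of the lineage, Neurog3, and of Neurod1 and Nkx2-2, both known to lie downstream of it, are shown because the data below separate the first from the others. Capitals mark E-boxes (CANNTG, the motif of basic helix-loop-helix factors, which reads the same way on both strands). The windows lie in GRCm38.p6 at chr10:62132840-62133089 on the plus strand, chr2:79456637-79456886 on the minus strand and chr2:147186403-147186652 on the minus strand. Nkx2-2 spans 147176485 to 147195434, so its window lies inside the gene, before an internal start site. The windows counted below for Rfx6 and Pax6 also include internal start sites.
Neurog3: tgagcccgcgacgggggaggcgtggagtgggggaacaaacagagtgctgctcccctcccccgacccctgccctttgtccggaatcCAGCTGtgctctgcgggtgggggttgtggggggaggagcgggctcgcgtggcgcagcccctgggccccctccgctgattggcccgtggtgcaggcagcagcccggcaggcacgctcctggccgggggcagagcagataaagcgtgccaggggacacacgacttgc
Neurod1: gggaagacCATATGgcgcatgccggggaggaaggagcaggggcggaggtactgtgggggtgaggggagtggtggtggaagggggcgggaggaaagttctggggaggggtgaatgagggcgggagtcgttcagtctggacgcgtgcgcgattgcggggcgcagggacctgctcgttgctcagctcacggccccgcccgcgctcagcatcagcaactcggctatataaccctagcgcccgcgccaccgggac
Nkx2-2: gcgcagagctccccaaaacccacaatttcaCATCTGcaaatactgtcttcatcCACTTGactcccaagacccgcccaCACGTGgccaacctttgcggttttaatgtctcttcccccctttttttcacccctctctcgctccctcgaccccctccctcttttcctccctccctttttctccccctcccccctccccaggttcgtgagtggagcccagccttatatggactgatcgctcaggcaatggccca
The E-box of Neurog3 is CAGCTG and starts at -165 relative to the start site. That of Neurod1 is CATATG and starts at -242, and the 3 of Nkx2-2 start at -220, -197 and -173. RefSeq windows from 250 bases before to 50 after the start were held for 7 members (8 windows), of which 6 had at least 1 E-box. The share among all 32851 promoters of this length was 72.3%, close to that of the members' windows. The direct repeats DR5 and DR1, motifs bound by pairs of nuclear receptors that include RXR, were searched as exact consensus repeats on both strands and were in 0 of the 8 windows, against 0.00913% and 0.0396% of all promoters.

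Neurog3 (chromosome 10, 62133090 to 62134763, plus strand, GRCm38) had the widest range of RPKM of the 9 genes. Its group means were, from high to low, 132 RPKM with RXRi on day 1, 55.8 in DMSO on day 1, 52.4 with atRA on day 1 and 49.1 in DMSO on day 0. They continued with 15.5 for atRA on day 3, 9.95 for atRA on day 4, 9.33 for DMSO on day 3, 7.75 for DMSO on day 4, 6.38 for atRA on day 5 and 5.28 for DMSO on day 5. The lowest 3 were RXRi organoids, with 1.99 on day 3, 0.381 on day 4 and 0.125 on day 5. The same treatment therefore held both the highest mean of the series and the 3 lowest. Neighbours in this order had overlapping libraries among the DMSO and atRA groups of day 1 with day 0, and from atRA on day 4 down to DMSO on day 5. No overlap with the next group was seen at the top, between day 0 and atRA on day 3, between atRA on days 3 and 4, or for the RXRi groups at the bottom.

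In GRCm38, Neurod1 (79452637 to 79456636, minus strand), Pax6 (105668896 to 105698410, plus strand), Insm1 (146221997 to 146225020, plus strand) and Nkx2-2 (147176485 to 147195434, minus strand) lie on chromosome 2. Rfx6 lies on chromosome 10 (51677760 to 51730429, plus strand), Pax4 on chromosome 6 (28442334 to 28449340, minus strand), Isl1 on chromosome 13 (116298270 to 116309688, minus strand) and Fev on chromosome 1 (74881501 to 74885473, minus strand). These 8 members were highest on days 0 and 1 in every treatment. Neurod1 had its highest group mean on day 0 (18.3 ± 3.11 RPKM, SD, n = 2 cultures), as did Pax4 (7.22 ± 0.339 RPKM), Pax6 (1.93 ± 0.235 RPKM), Isl1 (3.24 ± 0.357 RPKM), Nkx2-2 (9.38 ± 0.717 RPKM) and Rfx6 (9.34 ± 0.794 RPKM). Insm1 (16.9 ± 3.48 RPKM) and Fev (14.4 ± 4.98 RPKM) were highest with RXRi on day 1, as Neurog3 was, although their libraries overlapped those of day 0. The lowest mean was that of RXRi on day 5 for Insm1 (0.308 RPKM), Nkx2-2 (0.212 RPKM), Pax6 (0.0652 RPKM) and Fev (0.555 RPKM), and that of RXRi on day 4 for Neurod1 (0.373 RPKM), Pax4 (0 RPKM), Isl1 (0.0515 RPKM) and Rfx6 (0.241 RPKM). A gene represented by 3 reads, the floor used here, stands at 0.0210 to 0.0426 RPKM for Pax6 and at 0.0844 to 0.171 RPKM for Pax4, depending on the library. The late values of Pax4, Pax6 and Isl1 therefore rest on few reads.

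**Figure D1:**
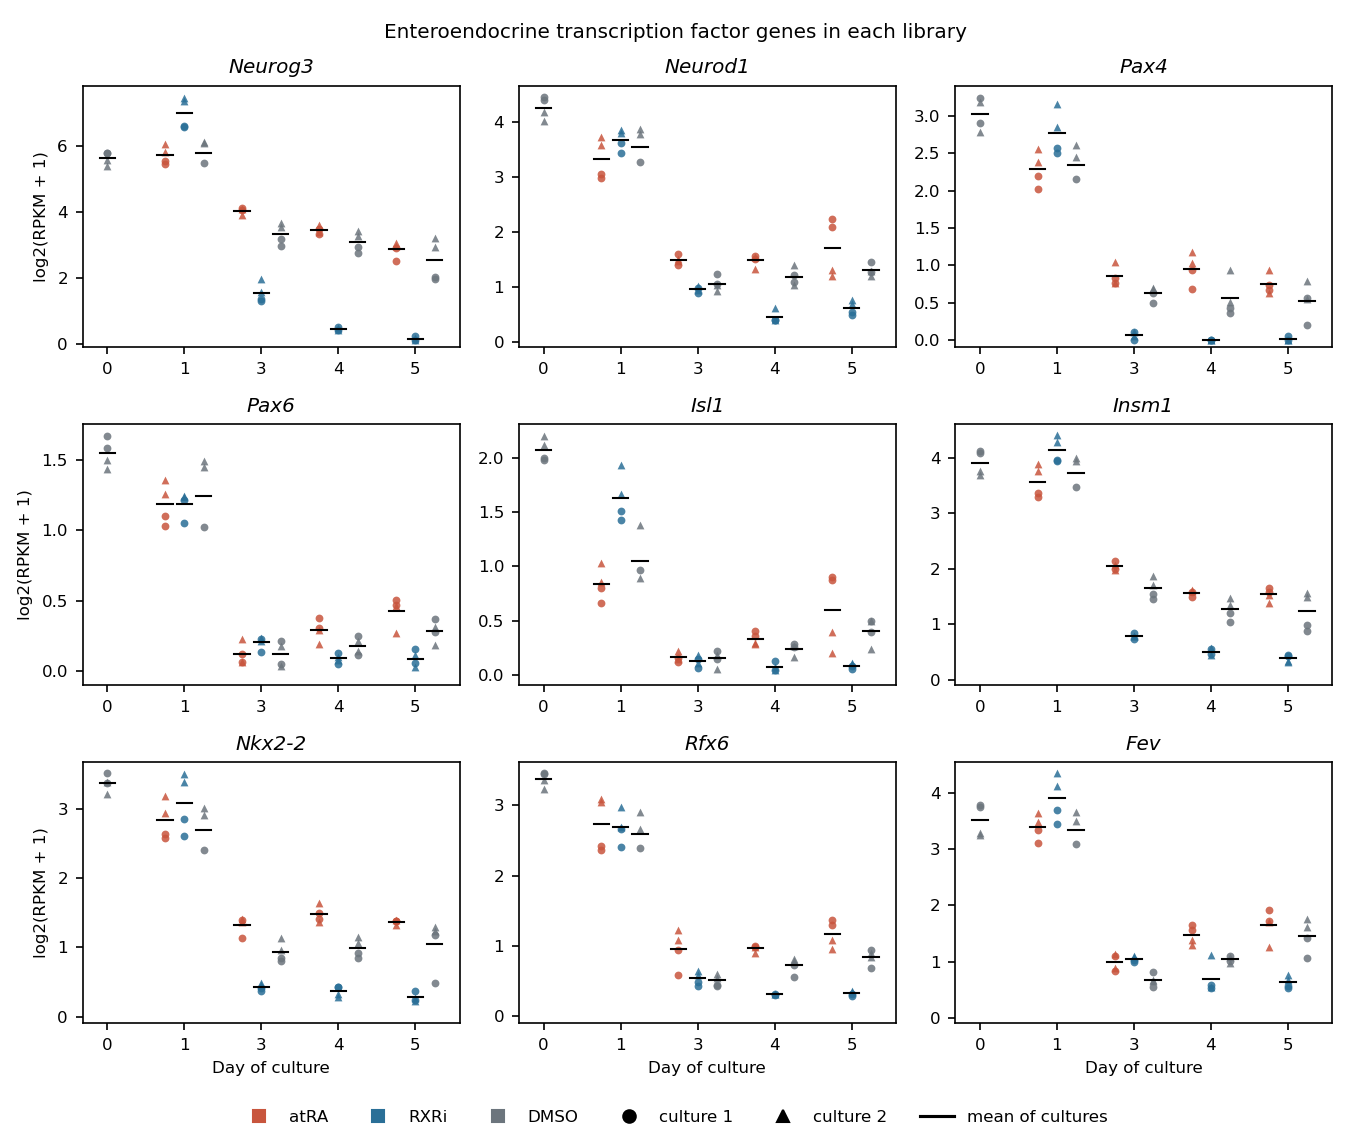
Level of each of the 9 genes, as log2(RPKM + 1), in 51 libraries by day of culture. Colours are treatments (day 0 is DMSO), circles and triangles are the 2 cultures, and bars are means of cultures; all 9 genes drop between days 1 and 3, and Neurog3 is highest with RXRi on day 1 and lowest with RXRi on days 3 to 5.

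Differences were tested with limma on log2(RPKM + 1) of culture means over all 12438 genes that passed a filter on low values, and a gene is called at a Benjamini-Hochberg adjusted p under 0.05. All 9 members passed the filter. This scale understates changes of low genes, and ± after a log2 fold change is its standard error. The atRA and RXRi comparisons of a day share their DMSO libraries, and successive days share a group.

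Through the first day in DMSO, 6 of 9 members fell, against a background of 35.6% of all tested genes called lower and 61.2% called in either direction. Isl1, a LIM homeodomain factor, had 0.951, 1.61 and 0.855 RPKM on day 1 and 3.01, 2.96, 3.36 and 3.62 RPKM on day 0. Its libraries did not overlap, with a log2 fold change of -1.03 ± 0.15 (adjusted p = 1.5e-05). Rfx6 (-0.78), Neurod1 (-0.71), Pax4 (-0.69), Nkx2-2 (-0.68) and Pax6 (-0.30) were the others called. Neurog3 had a log2 fold change of 0.15 ± 0.33 and was not called, nor were Insm1 (-0.19) and Fev (-0.18). The call of Pax6 was lost with median-of-ratios scaling (-0.23, adjusted p = 0.083), a pseudocount of 0.1 (-0.48, adjusted p = 0.12) or limma voom (-0.41, adjusted p = 0.11), that of Neurod1 with a pseudocount of 0.1 (-0.76, adjusted p = 0.051) and that of Rfx6 with the shallow library kept (-0.28, adjusted p = 0.28). Without culture 1 of day 0, or without culture 1 of day 1, 3 of the 6 calls remained, and Neurod1, Nkx2-2 and Pax6 were lost.

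Between days 1 and 3 in DMSO, all 9 members fell, against 6.49% of tested genes called lower and 12.7% in either direction. In no member did the libraries of the 2 days overlap, with 3 libraries on day 1. How many of all tested genes share this was not counted. Fev, an ETS factor known from serotonin-producing cells, had 0.759, 0.460, 0.580 and 0.590 RPKM on day 3 and 7.53, 10.3 and 11.6 RPKM on day 1 (log2 fold change -2.66 ± 0.22, adjusted p = 3.3e-07). Neurog3 had 6.91, 8.03, 10.7 and 11.7 RPKM on day 3 and 43.3, 69.1 and 67.3 RPKM on day 1, a log2 fold change of -2.45 ± 0.33. By ratio of means, day 1 exceeded day 3 by 5.73-fold for Insm1, 5.97-fold for Neurog3 and 6.02-fold for Nkx2-2, the smallest ratios of the 9. The ratio was 10.0 for Neurod1, 11.9 for Rfx6, 15.5 for Fev and 15.8 for Pax6, the largest. The median log2 fold change of the members was -2.07 and that of all tested genes was -0.0045. The 9 calls held whenever a culture was left out, and 2 of them (Insm1, -1.20, adjusted p = 0.069, and Nkx2-2, -1.15, adjusted p = 0.055) were lost when the shallow library was kept. The summed level of 6 enteroendocrine markers (Chga, Chgb, Scg5, Pcsk1, Neurod1 and Neurog3) was 59.5 to 81.0 RPKM on day 3 and 1209 to 1584 RPKM on day 1. Neurod1 and Neurog3 are among the 9 members, and Chgb alone was at 947 to 1275 RPKM on day 1. The part of cell number in the fall was not tested.

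From day 3 on, no member was called between successive days in DMSO. On day 4 against day 3, limma called 0 of 9 members, 0 passed an unadjusted p of 0.05 and limma voom called 0, while 54.9% of all tested genes were called. On day 5 against day 4 the counts were again 0, 0 and 0, with 3.44% of genes called. Neurog3 had 3.11, 2.96, 8.36 and 6.68 RPKM on day 5 and 5.82, 6.62, 9.84 and 8.72 RPKM on day 4 (log2 fold change -0.56 ± 0.33). The first 2 values of each day are from culture 1, which was lower than culture 2 on both days, and without culture 2 of day 5 the log2 fold change of Neurog3 was -1.09 (adjusted p = 0.045).

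With RXRi on day 1, Neurog3 and Isl1 rose, 2 of 9 members against 10.5% of genes called higher and 20.4% in either direction. Neurog3 had 95.1, 96.2, 163 and 173 RPKM in RXRi organoids and 43.3, 69.1 and 67.3 RPKM in DMSO organoids. Every RXRi library was above every DMSO library, the means differed by 2.37-fold, and the log2 fold change was 1.21 ± 0.33 (adjusted p = 0.014). Isl1 had 1.85, 1.69, 2.18 and 2.82 RPKM with RXRi and 0.951, 1.61 and 0.855 RPKM in DMSO (log2 fold change 0.58 ± 0.15, adjusted p = 0.0090). The groups did not overlap for these 2 members and overlapped for the other 7, and the share of all genes without overlap was not counted. Fev (0.57), Pax4 (0.43), Insm1 (0.43) and Nkx2-2 (0.39) had positive fold changes that were not called, and Neurod1, which lies directly downstream of Neurog3, had 9.74, 11.3, 13.4 and 12.97 RPKM with RXRi and 8.65, 12.7 and 13.7 RPKM in DMSO (log2 fold change 0.13 ± 0.24). With the culture as a block Pax4 was called as well (0.43, adjusted p = 0.021). In the same block run, which keeps the pairing by animal, Neurog3 was at 1.21 (adjusted p = 0.0024). Its mean in culture 1 was 95.7 RPKM with RXRi and 43.3 RPKM in DMSO, and in culture 2 it was 168 and 68.2 RPKM. In the fit without the block, the call of Neurog3 depended on single cultures, and leaving a culture out leaves an animal unmatched. Its log2 fold change was 0.89 (adjusted p = 0.18) without DMSO culture 1 of day 1 and 0.80 (adjusted p = 0.19) without RXRi culture 2, and both settings also ended the call of Isl1 (0.50 and 0.42), whereas without RXRi culture 1 there were 5 calls. Isl1 was not called by limma voom (adjusted p = 0.060) or with a pseudocount of 0.1 (adjusted p = 0.089). DMSO on day 1 is the group with 3 libraries, and its culture 1 is a single library.

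On days 3, 4 and 5 the direction of Neurog3 was the opposite. With RXRi on day 3 it had 1.60, 1.45, 2.01 and 2.92 RPKM, against 6.91, 8.03, 10.7 and 11.7 RPKM in DMSO (log2 fold change -1.79 ± 0.33, adjusted p = 0.00034). With RXRi on day 4 it had 0.438, 0.341, 0.399 and 0.346 RPKM, against 5.82, 6.62, 9.84 and 8.72 RPKM in DMSO (-2.64 ± 0.33, adjusted p = 2.8e-06). With RXRi on day 5 it had 0.0937, 0.189, 0.136 and 0.0799 RPKM, against 3.11, 2.96, 8.36 and 6.68 RPKM in DMSO (-2.38 ± 0.33, adjusted p = 7.0e-06). The groups did not overlap on any of these days, and the 3 calls held in every alternative run, with each culture left out in turn. In reads recovered from the table and summed over the 4 libraries of a group, RXRi held 250 and DMSO 1313 on day 3, 56 and 962 on day 4, and 16 and 445 on day 5. After scaling to depth, DMSO exceeded RXRi by 4.72-fold on day 3 (95% interval 4.12 to 5.42), 20.5-fold on day 4 (15.6 to 27.3) and 41.5-fold on day 5 (25.3 to 73.2), intervals that cover counting error only. The log2(RPKM + 1) scale, whose pseudocount of 1 exceeds the RXRi values of days 4 and 5, shows this widening less. Exons of Fam241b overlap Neurog3 on the opposite strand, and Fam241b stood at 12.7 to 13.7 RPKM with RXRi on day 5 while Neurog3 was at 0.0799 to 0.189 RPKM.

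Among the factors downstream of Neurog3, Insm1 and Pax4 fell with RXRi on day 3. With Neurog3 these were 3 of 9 members, against 25.4% of genes called lower and 43.8% in either direction, a share near the background. Insm1, a zinc finger repressor of neuroendocrine cells, had 0.666, 0.794, 0.723 and 0.727 RPKM with RXRi and 1.76, 1.92, 2.29 and 2.67 RPKM in DMSO (log2 fold change -0.86 ± 0.21, adjusted p = 0.0034). Pax4, a paired homeodomain factor, had 5 reads in the 4 RXRi libraries and 68 in the DMSO libraries (-0.56 ± 0.17, adjusted p = 0.012). Neurod1 (-0.10 ± 0.24), Rfx6 (0.03 ± 0.19), Isl1 (-0.03 ± 0.15) and Pax6 (0.08 ± 0.12) were not called, and Fev had 0.999, 1.05, 1.11 and 1.15 RPKM with RXRi and 0.759, 0.460, 0.580 and 0.590 RPKM in DMSO without passing the test (0.38 ± 0.22, adjusted p = 0.18). Fev was called higher on day 3 with a pseudocount of 0.1 (0.77, adjusted p = 0.041), which also called Nkx2-2 lower. Nkx2-2 was also called with the culture as a block (-0.51, adjusted p = 0.027) and by limma voom (-1.38, adjusted p = 0.045). Pax4 lost its call without DMSO culture 2 (-0.49) or RXRi culture 1 (-0.55).

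On day 4, 5 of 9 members fell with RXRi, against 37.0% of genes called lower and 59.0% in either direction, so the count is not far above the background. The 5 were Neurog3, Insm1 (-0.76 ± 0.21), Neurod1 (-0.73 ± 0.24), Nkx2-2 (-0.63 ± 0.21) and Pax4 (-0.56 ± 0.17). Pax4 had 0 reads in all 4 RXRi libraries and 7, 10, 27 and 11 reads in the DMSO libraries. At a floor of 3 reads over the 4 libraries together, not in each, it was at least 21.9-fold lower with RXRi. That bound leaves out the spread between cultures. Neurod1 had 0.322, 0.316, 0.542 and 0.313 RPKM with RXRi and 1.32, 1.12, 1.63 and 1.06 RPKM in DMSO. Rfx6 (-0.41 ± 0.19) was called with the culture as a block (adjusted p = 0.044), and limma voom called Rfx6 (-1.42, adjusted p = 0.024) and Isl1 (-1.80, adjusted p = 0.034). Without DMSO culture 2 of day 4, 1 call was left, that of Neurog3, and Neurod1 was -0.69 (adjusted p = 0.072) and Insm1 -0.61 (adjusted p = 0.059). Neurod1 was also lost without RXRi culture 1 (-0.67) and Nkx2-2 without RXRi culture 2 (-0.57). The median of all tested genes was -0.13 on this day, and scaling to median ratios moved the called genes from 2739 higher and 4600 lower to 3688 higher and 3651 lower.

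By day 5, 7 of 9 members fell with RXRi, against 35.1% of genes called lower and 63.8% in either direction. The libraries of RXRi and DMSO organoids did not overlap for any of the 9, but the share of all genes without overlap was not counted. Called besides Neurog3 were Insm1 (-0.85 ± 0.21), Fev (-0.83 ± 0.22), Nkx2-2 (-0.77 ± 0.21), Neurod1 (-0.68 ± 0.24), Rfx6 (-0.51 ± 0.19) and Pax4 (-0.51 ± 0.17). Fev had 0.477, 0.450, 0.694 and 0.598 RPKM with RXRi and 1.10, 1.67, 2.05 and 2.36 RPKM in DMSO. Rfx6, a winged helix factor required for islet and gut endocrine cells, had 0.252, 0.218, 0.283 and 0.267 RPKM with RXRi and 0.607, 0.921, 0.872 and 0.786 RPKM in DMSO. Isl1 had 0.0554, 0.0373, 0.0751 and 0.0735 RPKM with RXRi and 0.408, 0.314, 0.179 and 0.412 RPKM in DMSO (-0.32 ± 0.15, adjusted p = 0.066), and Pax6 differed by -0.20 ± 0.12. Isl1 was called with median-of-ratios scaling (-0.35, adjusted p = 0.043), and both Isl1 and Pax6 with a pseudocount of 0.1 or limma voom. By ratio of means, DMSO exceeded RXRi by 2.71-fold for Neurod1, 3.12-fold for Rfx6, 3.24-fold for Fev, 3.40-fold for Pax6, 4.54-fold for Insm1, 5.30-fold for Nkx2-2, 5.44-fold for Isl1 and 42.3-fold for Neurog3. Pax4 had 1 read with RXRi and 34 in DMSO (ratio 50.7, 95% interval 8.51 to 2061). Leaving out a culture of this day left 2 to 5 calls, and without DMSO culture 2 the 2 were Neurog3 and Neurod1, with Insm1 at -0.55 (adjusted p = 0.052), Nkx2-2 at -0.56, Pax4 at -0.37 and Fev at -0.61. Neurod1 was lost without DMSO culture 1 (-0.63) or RXRi culture 1 (-0.58), Rfx6 without any of the 4 cultures (-0.54 to -0.49) and Pax4 also without RXRi culture 2 (-0.50).

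Over the mean of the 4 days, 5 of 9 members were lower with RXRi, against 42.8% of genes called lower and 73.0% in either direction. Neurog3 averaged -1.40 ± 0.16, Insm1 -0.51 ± 0.11, Nkx2-2 -0.38 ± 0.11, Neurod1 -0.35 ± 0.12 and Pax4 -0.30 ± 0.08. This mean joins a rise on day 1 with a fall afterwards for Neurog3. Neurod1 was lost without DMSO culture 2 of day 1 (-0.28, adjusted p = 0.054), and Rfx6 was called with the culture as a block (-0.20, adjusted p = 0.042). With the shallow library kept there were 2 calls, and with limma voom 8. Over all genes these runs called 3491 of 12440 and 5344 of 12438 lower.

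The change of the RXRi effect with time was tested directly, as the mean effect of days 4 and 5 minus that of day 1. It was negative and called for 7 of 9 members, against 27.1% of genes called lower and 44.1% in either direction. Neurog3 had the largest, -3.72 ± 0.40 (adjusted p = 1.3e-06), followed by Insm1 (-1.23 ± 0.26), Fev (-1.16 ± 0.27), Nkx2-2 (-1.10 ± 0.26), Pax4 (-0.97 ± 0.20), Neurod1 (-0.83 ± 0.30) and Isl1 (-0.83 ± 0.18). Rfx6 (-0.56 ± 0.23, adjusted p = 0.057) and Pax6 (-0.08 ± 0.14) were not called, and Rfx6 was with the culture as a block (adjusted p = 0.035) or a pseudocount of 0.1 (-1.34, adjusted p = 0.0046). limma voom called both, Rfx6 at -1.58 (adjusted p = 0.0072) and Pax6 at -1.17 (adjusted p = 0.032). With no filter on low values Neurod1 lost its call (-0.83, adjusted p = 0.053). Neurod1 lost its call without DMSO culture 1 of day 1 (-0.56), RXRi culture 2 of day 1 (-0.68), DMSO culture 2 or RXRi culture 1 of day 4 (-0.82 and -0.81) or RXRi culture 1 of day 5 (-0.78). Scaling to median ratios moved the called genes from 2121 higher and 3369 lower to 2962 higher and 2739 lower, and left Neurog3 at -3.73.

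**Figure D2:**
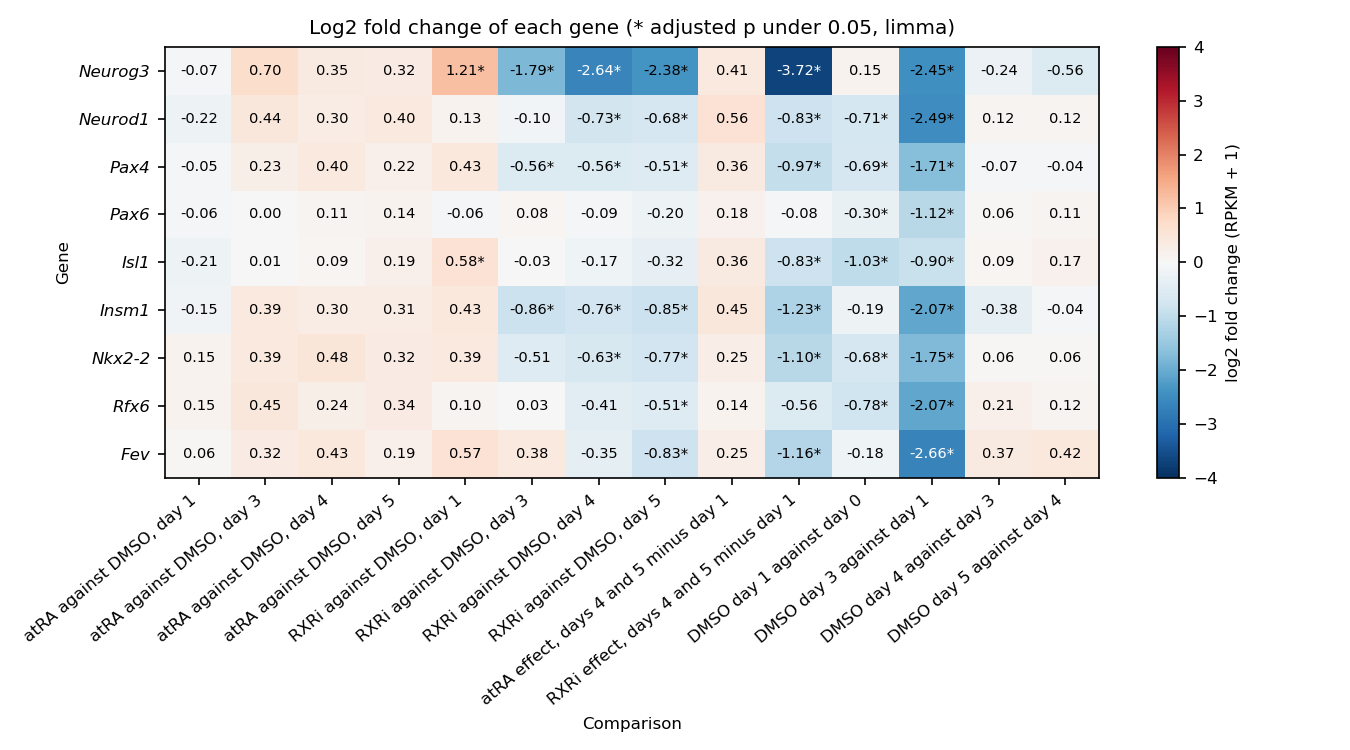
Log2 fold change on the log2(RPKM + 1) scale of each gene (rows) in 14 comparisons (columns), with an asterisk where the limma adjusted p is under 0.05. With RXRi 2 genes are called higher on day 1, and 3, 5 and 7 genes lower on days 3, 4 and 5, all 9 genes are lower on day 3 than on day 1 in DMSO, and no gene is called with atRA on a single day.

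The ratio of Neurog3 to Neurod1, a factor it is known to activate, separated the RXRi from the DMSO organoids of each day. In RPKM it was 8.51 to 13.4 in the RXRi libraries and 4.92 to 5.45 in the DMSO libraries of day 1. On day 3 it was 1.65 to 2.85 with RXRi and 5.15 to 11.8 in DMSO, on day 4 it was 0.736 to 1.36 with RXRi and 4.42 to 8.26 in DMSO, and on day 5 it was 0.116 to 0.463 with RXRi and 1.70 to 6.40 in DMSO. The libraries of RXRi and DMSO did not overlap on any of the 4 days, above DMSO on day 1 and below it afterwards. With atRA the ratio was 5.07 to 6.32 on day 1, 7.84 to 9.47 on day 3, 4.61 to 7.37 on day 4 and 1.29 to 5.67 on day 5, and on day 0 it was 2.41 to 3.08. As a share of the summed RPKM of the 9 genes, Neurog3 made up 63.6% to 68.6% with RXRi and 51.8% to 53.5% in DMSO on day 1, and 3.58% to 9.52% with RXRi and 28.0% to 50.2% in DMSO on day 5. The values with RXRi on day 5 rest on 2 to 6 reads of Neurog3 a library. Exons of Cerkl overlap Neurod1 on the same strand and cannot be told apart from it here. Cerkl was at or below 0.264 RPKM in the 51 libraries. On day 5 it reached 0.151 RPKM with RXRi and 0.0270 RPKM in DMSO, beside Neurod1 at 0.409 to 0.691 RPKM with RXRi. On day 4 Cerkl reached 0.0286 RPKM with RXRi and 0.0637 RPKM in DMSO. The part of shared reads in the low Neurod1 values was not tested.

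**Figure D3:**
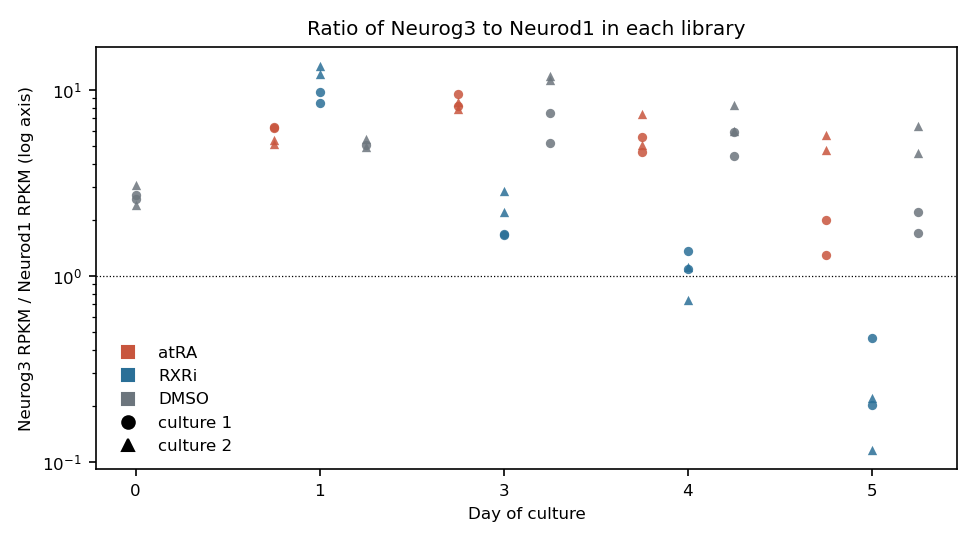
Ratio of Neurog3 RPKM to Neurod1 RPKM (log axis) in 51 libraries by day of culture, with colours for treatments and circles and triangles for the 2 cultures. The dotted line is a ratio of 1; RXRi libraries lie above DMSO on day 1 at 8.51 to 13.4 and below it on day 5 at 0.116 to 0.463.

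Retinoic acid gave small differences in the other direction that mostly did not pass the test. Of 7 retinoic acid target genes 4 passed the filter, and 3 of them are described here. Isx, an intestinal homeobox gene known to be induced by retinoic acid (6.63 on day 1 and 1.18 on day 5, log2 fold change), Cyp26b1, a retinoic acid-degrading enzyme (1.49 on day 1 and 5.29 on day 5), and Dhrs3, a retinaldehyde reductase (3.54 on day 1 and 0.85 on day 5), rose with atRA on each of the 4 days. On day 1, limma called 0 of 9 members and 3.47% of all genes, and 3 of the 9 fold changes were positive. On day 3 it called 0 of 9 and 8.68% of genes, on day 4 0 of 9 and 10.9%, and on day 5 0 of 9 and 5.03%, with 9 of 9 fold changes positive on each of these days. The median of all tested genes was -0.044, -0.12 and 0.0018 on these days. The 9 genes come from the same cultures and move together, so their signs are not separate results. An unadjusted p under 0.05 was reached by 0 members on day 1, 2 on day 3, 2 on day 4 and 0 on day 5, and limma voom called 0 on each day. The share of all genes at that unadjusted p was not counted. Neurog3 had 15.5, 16.6, 13.96 and 16.0 RPKM with atRA on day 3 and 6.91, 8.03, 10.7 and 11.7 RPKM in DMSO. The groups did not overlap, and the log2 fold change of 0.70 ± 0.33 was not called (adjusted p = 0.25). Nkx2-2 had 1.83, 1.65, 2.12 and 1.57 RPKM with atRA on day 4 and 0.795, 0.891, 1.08 and 1.23 RPKM in DMSO (0.48 ± 0.21, adjusted p = 0.14). Pax4 had 116 reads with atRA and 55 in DMSO on day 4 (0.40 ± 0.17, adjusted p = 0.13), and with the culture as a block it was called (0.40, adjusted p = 0.048). Rfx6 was called on day 3 with a pseudocount of 0.1 (0.96, adjusted p = 0.042).

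Over the mean of the 4 days with atRA, Nkx2-2 (0.33 ± 0.11, adjusted p = 0.030) and Rfx6 (0.29 ± 0.09, adjusted p = 0.032) rose, 2 of 9 members against 7.98% of genes called higher and 22.9% in either direction. All 9 means were positive, with a median of 0.23 against -0.04 for all tested genes. Both calls are narrow: they were lost with no filter on low values (adjusted p = 0.051 and 0.053), with the shallow library kept (adjusted p = 0.13 and 0.40), and without any of 7 of the 16 cultures in the comparison. Those 7 were atRA culture 2 of days 1, 3 and 4 and DMSO culture 1 of days 1, 3, 4 and 5, with Nkx2-2 at 0.27 to 0.33 and Rfx6 at 0.21 to 0.30, and Rfx6 alone was lost without atRA culture 1 of day 4 or 5. Pax4 was called with the culture as a block (0.20, adjusted p = 0.031), and without DMSO culture 2 of day 5 there were 4 calls. Scaling to median ratios moved the called genes from 993 higher and 1861 lower to 1307 higher and 1245 lower. The atRA effect of days 4 and 5 minus that of day 1 was called for 0 of 9 members by limma, with 0 at an unadjusted p under 0.05 and 0 by limma voom, and for 1.78% of genes.

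The 2 cultures differed with atRA on day 5. Neurod1 had 3.69 and 3.24 RPKM in culture 1 and 1.46 and 1.30 RPKM in culture 2, and Isl1 had 0.872 and 0.839 RPKM in culture 1 and 0.149 and 0.317 RPKM in culture 2. Neurog3 did not share this order, with 4.78 and 6.48 RPKM in culture 1 and 6.90 and 7.36 RPKM in culture 2. Without atRA culture 2, Neurod1 (0.85, adjusted p = 0.033) and Isl1 (0.49, adjusted p = 0.029) were called against DMSO on day 5. The summed enteroendocrine markers, which include Neurod1 and Neurog3 themselves, were 212 to 550 RPKM with atRA and 166 to 201 RPKM in DMSO on that day. Their part in the difference was not tested.

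Among 22 other transcription factor genes of the lineage, 15 passed the filter. With RXRi on day 1, 3 rose and 3 fell, against 10.5% of all tested genes called higher and 9.93% called lower. Sox4 (-1.28), linked to early enteroendocrine and tuft cell differentiation, was among those that fell. On day 3, 1 rose and 4 fell, led by Sox4 (-2.30) and Tox3 (-2.29), on day 4, 3 rose and 4 fell, and on day 5, 2 rose and 5 fell, led by Bcl11a (-1.09) and Foxa1 (1.76). The counts of genes that fell on days 3, 4 and 5 are near or below the 25.4%, 37.0% and 35.1% of all tested genes called lower. The median of the 15 stayed near that of all genes, at -0.15 against -0.06 on day 5, while the median of the 9 members was -0.68. In DMSO on day 3 against day 1, 0 rose and 8 fell, led by Lmx1a (-1.85), a factor of serotonin-producing cells, and Myt1 (-1.33). Over all tested genes, 6.49% were called lower in this comparison.

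Of 16 genes of the secretory fate decision, from which Neurog3-positive progenitors arise, 13 passed the filter. With RXRi 0 rose and 5 fell on day 1, 2 rose and 9 fell on day 3, 2 rose and 10 fell on day 4, and 2 rose and 10 fell on day 5. Over all tested genes the shares called lower on these days were 9.93%, 25.4%, 37.0% and 35.1%, and the shares called higher were 10.5%, 18.4%, 22.0% and 28.7%. The median of the 13 was -0.30 on day 1 and -0.63 on day 5, against -0.0037 and -0.06 for all tested genes. Dll1, a Notch ligand of secretory progenitors, fell by 1.03 on day 1, when Neurog3 rose, and by 2.18 on day 3 on the log2 scale. Atoh1, the factor required for all secretory cells, fell by 1.57 on day 3 and by 2.22 on day 5. Spdef, a goblet and Paneth cell factor, fell by 1.68 on day 3, and the receptor gene Notch2 rose by 1.03 on day 5.

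Hormone genes and granule genes, the products of the differentiated cells, were called in both directions on day 3, when Neurog3 was lower. Of 14 hormone genes 12 passed the filter, and with RXRi 0 rose and 2 fell on day 1 (median -0.37), and 3 rose and 2 fell on day 3. The counts of day 3 are near the 18.4% of all tested genes called higher and the 25.4% called lower. Sst (somatostatin) had a log2 fold change of 1.57, Tph1 (serotonin synthesis) 1.12, Tac1 (substance P) 0.97 and Sct (secretin) -0.90. On day 4, 1 rose and 3 fell, and on day 5, 0 rose and 8 fell, led by Gcg (proglucagon, -2.94), Ghrl (ghrelin, -2.04) and Sct (-1.85). Over all tested genes, 10.5% were called higher and 9.93% lower on day 1, and 22.0% and 37.0% on day 4. Of 16 granule and neuroendocrine genes 15 passed, with 5 higher and 1 lower on day 3 and 1 higher and 7 lower on day 5, when 28.7% of all tested genes were called higher and 35.1% lower. Ddc, the decarboxylase of serotonin and dopamine synthesis, fell by 2.42 on day 3 and by 3.79 on day 5, while Resp18 (1.20) and Chgb (1.03) rose on day 3. These differences were not tested against those of the 9 factors.

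**Figure D4:**
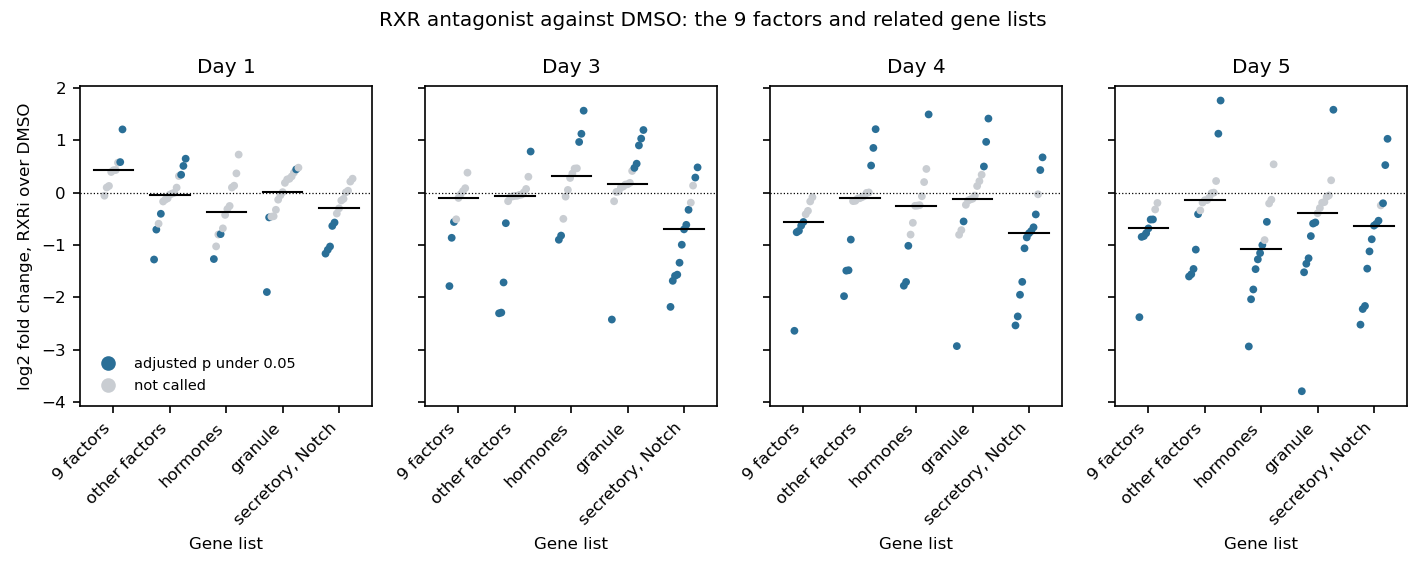
Log2 fold change of RXRi over DMSO for each tested gene of 5 lists (the 9 factors, 15 other lineage factors, 12 hormone genes, 15 granule genes, 13 secretory and Notch genes) on 4 days. Blue points have a limma adjusted p under 0.05, grey points do not, and bars are medians; the 9 factors have medians of 0.43, -0.10, -0.56 and -0.68 on days 1, 3, 4 and 5.

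Markers of other cells also moved with RXRi. The summed enteroendocrine markers were 99.2 to 138 RPKM with RXRi and 59.5 to 81.0 RPKM in DMSO on day 3, and 71.1 to 83.3 RPKM with RXRi and 166 to 201 RPKM in DMSO on day 5. This sum includes Neurod1 and Neurog3, and Chgb alone was at 57.2 to 70.3 RPKM with RXRi and 141 to 172 RPKM in DMSO on day 5. The 4 stem cell markers (Lgr5, Olfm4, Ascl2 and Smoc2) summed to 25.6 to 27.9 RPKM with RXRi and 85.5 to 92.3 RPKM in DMSO on day 1, and to 0.663 to 1.15 RPKM with RXRi and 76.6 to 296 RPKM in DMSO on day 5. The 4 Paneth cell markers summed to 9.17 to 16.3 RPKM with RXRi and 2282 to 3270 RPKM in DMSO on day 5. The 4 proliferation markers summed to 45.6 to 63.6 RPKM with RXRi and 106 to 142 RPKM in DMSO on that day, and the 5 tuft cell markers that the table holds to 32.2 to 36.6 RPKM with RXRi and 1.21 to 1.88 RPKM in DMSO. With RXRi nearly all of the tuft sum was Avil, an actin-binding protein gene at 32.1 to 36.5 RPKM with RXRi and 0.481 to 0.929 RPKM in DMSO. The tuft cell factor Pou2f3 was at 0.0286 to 0.0814 RPKM with RXRi and 0.373 to 0.527 RPKM in DMSO, Trpm5 and Dclk1 were also below DMSO in every RXRi library, and Gfi1b was at 0 with RXRi. The part of these shifts in the values of the 9 factors was not tested.

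Across the 26 culture means the 9 members rose and fell together, with Pearson's r of log2(RPKM + 1) between 0.775 and 0.993 over their 36 pairs (median 0.955). The points share the step between days 1 and 3, so these values describe that step. The lowest r was that of Neurog3 with Isl1 and the highest that of Pax4 with Nkx2-2. For each member the 3 most similar of the 12438 genes were taken, and 7 of these 27 places were held by other members. Neurog3 was nearest to Insm1 (0.966), Gfra3 (0.943) and Nkx2-2 (0.939), the lowest set of the 9, and Neurod1 to Rfx6 (0.991), Cplx2 (0.986) and Celf3 (0.986). The nearest genes were Fgd2 (0.991) and Slc29a4 (0.989) after Nkx2-2 for Pax4, Cacna1h (0.991), Cacna2d1 (0.989) and Scn3a (0.988) for Pax6, and, among its 3, Cxxc5 (0.970) and Baiap3 (0.961) for Isl1. They were Nrep (0.988), Pax4 (0.984) and Dbn1 (0.984) for Insm1, Celf3 (0.989) and Kcnk16 (0.985) after Pax4 for Nkx2-2, Cplx2 (0.990) and Cacna1h (0.989) after Neurod1 for Rfx6, and Hmgn3 (0.991), Scgn (0.991) and Gng4 (0.988) for Fev.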

How the data were processed

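The authors deposited RPKM values in 1 table, per the file headers. Its 52 columns, 1 per library, were matched to the labels by title. bcl2fastq 2.17, STAR 2.5.2b and the build mm10 come from the submitters' processing notes. How reads were assigned to genes, and whether strand was used, is not given in the sources used here. Overlapping and antisense genes can therefore share reads. The design text counts 4 conditions, and the labels name 3. All values above 0 of 19708 genes were whole multiples of a read within 0.001 read. These recovered reads gave the depths and read ratios and were used for limma voom, chosen after seeing the data.

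Values were taken as log2(RPKM + 1), and duplicates were averaged to 26 culture means. The filter was 1 RPKM or more in 4 or more libraries (12438 genes tested, 11655 left out, and 23 rows without a symbol, with 0.028% of reads, excluded). limma 3.58.1 in R 4.3.3 (trend and robust) was fitted over all 13 groups with 13 residual degrees of freedom and Benjamini-Hochberg adjustment within each of 16 comparisons, and was tested on simulated data. The 9 members and the gene lists were chosen with earlier results of these data known. Named genes are all members, the 3 most similar genes of each, and up to 4 genes with the smallest p of each list and comparison. The labels pair cultures by animal. Deviations from the group means, compared between same-numbered cultures for 78 pairs of groups, had a median r of 0.149 (-0.317 to 0.759), and 47 pairs exceeded 0.1. Gene coordinates and promoters are from RefSeq (GRCm38.p6), matched by Entrez identifier, and strands and gene overlaps from GENCODE vM21. Of 1326 pairs of libraries, 0 held identical values. Alternatives were a pseudocount of 0.1, no filter, the shallow library kept, median-of-ratios scaling, the culture as a block, limma voom and leaving out each culture. Some genes of the lists are not reported here.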

Additional observations from a re-analysis of the deposited data

Results flagged for a closer look

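The RXRi effect on 7 of the 9 factors differed between days 4 and 5 (mean) and day 1 by the direct test of that difference in limma. The difference was -3.72 for Neurog3 (adjusted p = 1.3e-06), -1.23 for Insm1 (adjusted p = 0.00098), -1.16 for Fev (adjusted p = 0.0024), -1.10 for Nkx2-2 (adjusted p = 0.0025), -0.97 for Pax4 (adjusted p = 0.0010), -0.83 for Isl1 (adjusted p = 0.0013) and -0.83 for Neurod1 (adjusted p = 0.031). For Neurog3 the libraries did not overlap in either direction, above DMSO on day 1 and below it on days 4 and 5. Groups of 2 cultures are too small for a search for single outlying samples.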

How the results depend on the processing

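Of 46 calls of single members, all kept their direction in the 600 pairs of a call and an alternative, and 519 of these pairs kept the call. The fall of all 9 members between days 1 and 3 in DMSO gave 9 calls with any culture left out. A pseudocount of 0.1 gave 1 call for DMSO on day 4 against day 3 (Fev, 0.75), 1 for atRA on day 3, 1, 5 and 8 for RXRi on days 1, 3 and 4, and 4 for the atRA mean. Over all 12438 genes it called 2603 higher for DMSO on day 4, 597 higher for atRA on day 3 and 1031 higher for the atRA mean. With RXRi it called 1213 higher on day 1, 2262 higher and 3238 lower on day 3, and 4753 lower on day 4. No filter gave 0 for the atRA mean. With the shallow library kept there were 5, 1, 1 and 1 for RXRi on days 1, 3, 4 and 5, 0 for the atRA mean and 2 for the RXRi mean, and 21 of the 46 calls were lost. Over all genes that run called 2301 higher for RXRi on day 1, against 1301 in the main run. It called 1369, 2679 and 2780 lower on days 3, 4 and 5. Median-of-ratios scaling moved the median of all genes on day 4 to 0.02 from -0.12 for atRA, to -0.01 from -0.13 for RXRi and to 0.02 from -0.10 for DMSO against day 3, and to 0.03 from -0.08 for the change of the RXRi effect. The cultures are paired by animal, and as a block they gave 1 for atRA on day 4, lost 0 calls, and changed no call beyond those given above. Over all 12438 genes the block run called 525 higher and 1190 lower for atRA on day 4. limma voom gave 1, 4 and 7 for RXRi on days 1, 3 and 4, 9 for the change of the RXRi effect and 8 for the RXRi mean, where Isl1 turned to -0.92 from an uncalled 0.02, and the cause was not tested. Over all genes limma voom called 1087 higher for RXRi on day 1, and 3388 and 4803 lower on days 3 and 4. It called 3324 lower for the change of the RXRi effect and 5344 lower for the RXRi mean. With 1 culture left out, the lone culture being taken to vary like the other groups, counts ranged from 3 to 6 for DMSO day 1 against day 0, 0 to 1 for day 5 against day 4, 0 to 2 for atRA on day 5, 0 to 5, 2 to 3, 1 to 5 and 2 to 5 for RXRi on days 1, 3, 4 and 5, 0 to 4 for the atRA mean, 4 to 7 for the RXRi mean and 6 to 8 for the change of the RXRi effect. Counts over all genes were not made for the runs with 1 culture left out. Depth limits Pax4, Pax6 and Isl1 after day 1, and Neurog3 with RXRi on day 5, where single libraries held few reads, and 2 cultures per group limit every test.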
